A study of Rattus norvegicus with 25 samples.

Results

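The genes described here are the ligands and receptors of axon guidance in the rat hippocampus, taken from the count table by name: the ephrins and Eph receptors, the semaphorins with their plexin and neuropilin receptors, the Slits and Robos, and the netrins with the Unc5 family and Dcc. The name rule matched 70 of 34322 listed genes, and 69 passed the filter on low counts. Of the matches, Unc50 and Unc5cl share only the start of a name with the Unc5 receptors and are not guidance genes. Unc5cl was the 1 gene that failed the filter, with 69 counts over all 25 libraries. The 68 guidance genes were 35 ligands and 33 receptors, and all 68 were tested. RNA was sequenced from the hippocampus of male Sprague-Dawley rats aged 6 to 7 weeks, in 5 groups of 5 libraries. TNF-CCI, TCF-CCI and TD-CCI were rats with a controlled cortical impact (CCI), a piston blow to the exposed cortex, that received a thymus nuclear factor, a thymus cytosolic factor or thymus. TNF here is this nuclear factor and not the cytokine. Vehicle-CCI had the impact with vehicle, and Vehicle-sham had vehicle and sham surgery with no impact. The series sets the supplements beside sham controls to ask about recovery after brain injury. The sources used here give neither doses nor when after the impact, nor from which hemisphere, tissue was taken. They also do not say that each library is its own rat, so a p-value here reflects the spread of these libraries, which may be technical.

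Guidance cues steer growing axons by attraction or repulsion, and most act through receptors that reshape the actin and microtubule skeleton of the growth cone. Ephrins are bound to the cell surface and act at contact, whereas class 3 semaphorins, Slits and netrins are secreted. In the adult hippocampus many of these genes stay expressed, where they are known for shaping dendritic spines, synapses and the paths of mossy fibres.

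Library totals ran from 27.29 M to 44.9 M counts (median 32.83 M). Vehicle-sham 2 stood apart: 25.63% of its counts were mitochondrial ribosomal RNA, Vehicle-sham 3 had 17.26%, and the other libraries had 2.176 to 10.9%. After TMM scaling (the trimmed mean method of edgeR) Vehicle-sham 2 was the lowest of all 25 libraries in 41 of the 69 tested genes of the rule and the highest in 5. Values without it are also given for the genes called with the 4 CCI groups together, and for some others. The results for cell type markers, gene spans and other genes of the guidance pathway are given only with it. The summed level of 8 neuron markers ran from 1844 to 4195 CPM (counts scaled to the library total) in the 20 CCI libraries and from 2902 to 4855 CPM in Vehicle-sham. This sum rests mainly on Map2 and Snap25, which averaged 1579 and 771 CPM over all 25 libraries and were both highest in Vehicle-sham 2. None of the 8 neuron markers was above 0 in its log2 fold change, and none passed the test. Of 6 CA2 and CA3 pyramidal markers 4 fell, and their sum was 299.3 to 657.2 CPM in CCI libraries and 495.5 to 825.4 CPM in Vehicle-sham. Of 8 microglia markers 5 rose, with sums of 162.6 to 569.2 CPM in CCI libraries and 135.4 to 209.8 CPM in Vehicle-sham. In RNA from whole tissue, fewer cells of a type and less RNA per cell cannot be told apart.

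Levels between genes are compared as CPM per kb of exon. The highest over all 25 libraries was the netrin receptor Unc5a at 42.1 CPM per kb, ahead of Sema7a, a membrane-anchored semaphorin, at 22.4 and Epha4, the ephrin receptor of dendritic spines, at 22.2. Next came Sema6b at 20.7, Efnb3 at 20.0, Epha8 at 18.6, Plxnb3 at 18.2 and Slit1 at 17.3 CPM per kb. The lowest were Epha2 at 0.233, Epha1 at 0.264, Sema3a at 0.358 and Efna4 at 0.564 CPM per kb. These neighbours in the order are not separated beyond their spread: in Vehicle-sham, Sema7a was 24.0 ± 7.16 and Epha4 28.9 ± 7.74 CPM per kb (SD, n = 5). Most of the 25 libraries are CCI libraries, and the order of means in Vehicle-sham differs. There Epha7 at 24.9 and Epha6 at 23.6 CPM per kb stood above Slit1 at 16.0 and Plxnb3 at 15.9 CPM per kb. The largest summed family levels in sham hippocampus were those of EphA receptors, at 128.9 CPM per kb, and plexins, at 83.1 CPM per kb, and the smallest was that of netrins, at 6.98 CPM per kb. Single members made up most of some families: Efnb3 held 77.4% of the ephrin-B sum, Unc5a 67.3% of the Unc5 and Dcc sum, Slit1 65.8% of the Slit sum and Efna3 59.3% of the ephrin-A sum.

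**Figure D1:**
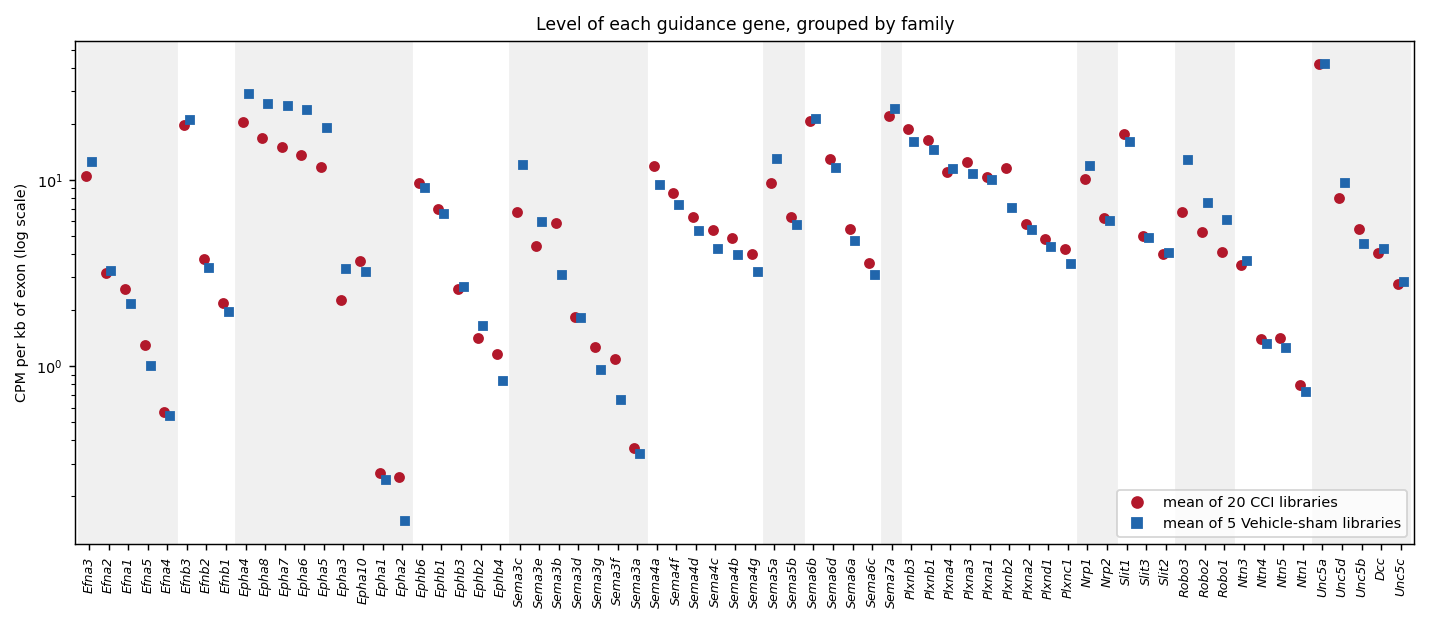
Level of each of the 68 guidance genes in CPM per kb of exon (log scale), grouped by family on alternating grey bands and ordered by sham level within a family. Circles are means of the 20 CCI libraries and squares means of the 5 Vehicle-sham libraries; the circle lies below the square for 6 of 9 EphA receptors, 3 of 3 Robo receptors and 4 of 5 genes of the Unc5 and Dcc family, and for 1 of 9 plexins.

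The CCI groups were examined first together, as the mean of the 4 CCI groups over Vehicle-sham. In 3 of these groups the rats also received a supplement, so injury and supplement cannot be told apart in this mean. Of 69 tested genes of the rule, 8 passed the edgeR quasi-likelihood test at an adjusted p (Benjamini-Hochberg over 21064 genes) under 0.05, where 5.92% of all genes tested did. That is 11.6% of the genes of the rule, and the share of all genes would correspond to 4.09 of them. By direction 7 fell, where 3.68% of all genes fell, and 1 rose, where 2.24% of all genes rose. The 7 that fell were the EphA receptors Epha3, Epha5, Epha6 and Epha7, the Slit receptors Robo1 and Robo2, and the secreted semaphorin Sema3c. The 1 that rose was Sema3b, another secreted semaphorin. Receptors made up 6 of the 8 calls, among 33 receptors, and ligands the other 2 of 35. Over the 69 genes the median log2 fold change was 0.08, with 41 above 0 and 28 below, beside a median of 0.01 over all genes tested, of which 51.2% were above 0. At an unadjusted p under 0.05 there were 16 of the 69, beside 24.7% of all genes. Higher calls were 37.8% of all calls, 49.4% with limma voom and 57.7% with the mitochondrial rRNA share of each library as a covariate. Without Vehicle-sham 2 the median of the 69 was -0.03 and 30 were above 0. All 8 kept their direction without Vehicle-sham 2, but none passed the test, and the calls over all genes numbered 14 in place of 1248. With mitochondrial rRNA as a covariate 2 of the 69 passed, Epha6 and Sema5a, and with the neuron marker sum as a covariate none did. In the neuron marker fit no gene of the whole table was called higher, and whether any was called lower is not given here. The share of all genes called is not given here for either fit, so a loss particular to these genes is not shown.

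**Figure D2:**
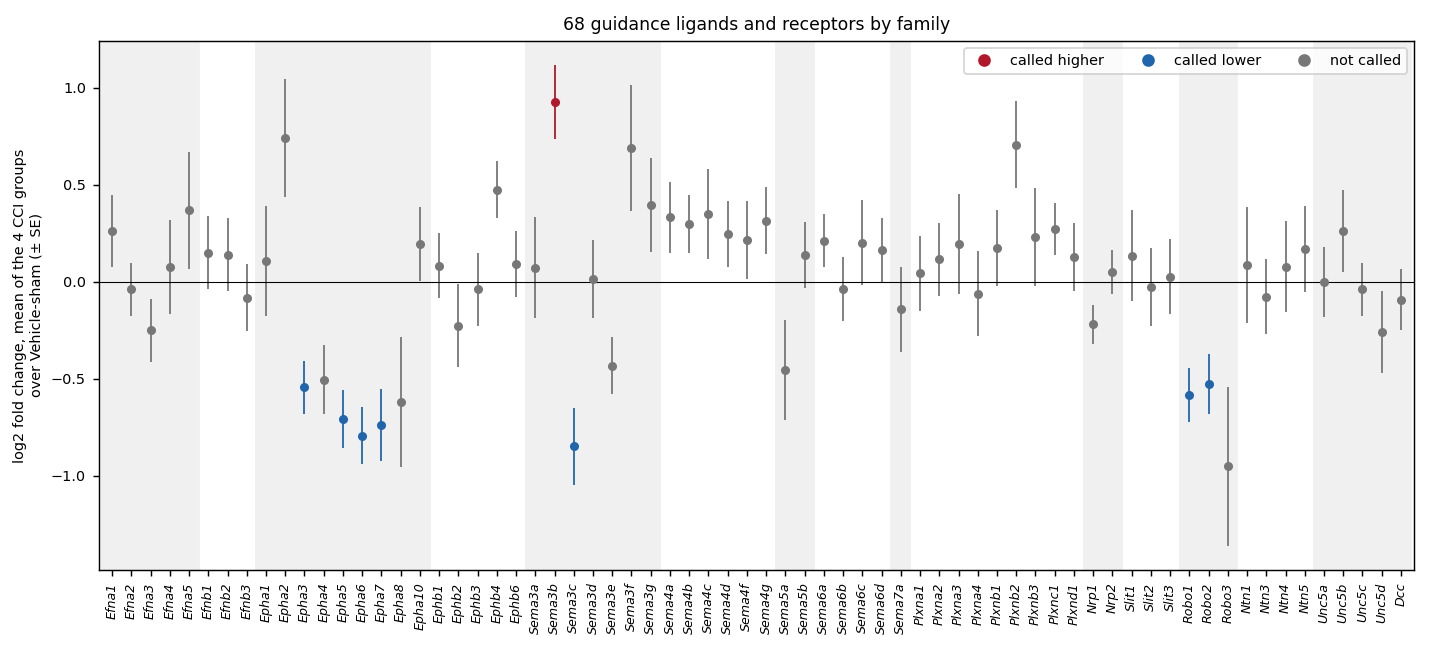
The log2 fold change (± SE) of each of the 68 guidance genes (mean of the 4 CCI groups over Vehicle-sham), by family on alternating grey bands. Blue points are the 7 genes called lower, the red point is Sema3b, called higher, and grey points did not pass the edgeR test.

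Among Eph receptors, tyrosine kinases that bind ephrins on neighbouring cells, 4 of 9 EphA members fell and 6 of 9 were below 0, with a median log2 fold change of -0.55. Epha6, a receptor best known in neurons (chr11:39757870-40708901 on mRatBN7.2), had 262, 236, 155, 213 and 243 CPM in TNF-CCI, 194, 250.3, 171, 233 and 209 CPM in TCF-CCI, 196, 261, 206, 229.6 and 249 CPM in TD-CCI, 188, 128, 284, 274 and 173 CPM in Vehicle-CCI, and 314, 463, 285, 396 and 428 CPM in Vehicle-sham. All 20 CCI libraries lay below all 5 Vehicle-sham libraries, which 0.038% of all genes tested did in that direction. The log2 fold change of Epha6 was -0.79 ± 0.15 (SE; edgeR adjusted p = 0.0222). The gap was narrow at its edge, since the highest CCI library, Vehicle-CCI 3, had 284.49 CPM and the lowest sham library, Vehicle-sham 3, had 285.16 CPM.

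Epha5, a receptor of ephrin-A ligands in hippocampal and cortical neurons (chr14:23653393-24020135), ran from 57.4 to 139 CPM with a median of 93.5 CPM in the 20 CCI libraries, against 109, 174, 167, 176 and 152 CPM in Vehicle-sham. Of the CCI libraries 14 of 20 lay below every sham library. Its log2 fold change was -0.71 ± 0.15 (edgeR adjusted p = 0.0222). Epha7, a receptor of ephrin-A5 with a role in cortical and synapse development (chr5:42975353-43128703), ran from 73.9 to 183 CPM with a median of 109.6 CPM in CCI libraries, against 197, 158, 186, 235 and 204 CPM in Vehicle-sham. In 16 of 20 CCI libraries it was below every sham library, and its log2 fold change was -0.74 ± 0.19 (edgeR adjusted p = 0.0285). Epha3 (chr11:1138485-1474102), a lower-level member of the same receptor family, ran from 10.6 to 22.7 CPM with a median of 17.1 CPM in CCI libraries, against 21.9, 32.3, 24.8, 22.5 and 20.6 CPM in Vehicle-sham. The groups overlapped in 3 CCI libraries, the other 17 of 20 being below every sham library, with a log2 fold change of -0.55 ± 0.14 (SE; in the edgeR test, adjusted p = 0.0285). Without Vehicle-sham 2 the log2 fold changes were -0.68 for Epha6 (edgeR adjusted p = 0.06), -0.64 for Epha5 (0.0743), -0.78 for Epha7 (0.0745) and -0.40 for Epha3 (0.186). Epha3 also missed the threshold without Vehicle-sham 3 (-0.54, edgeR adjusted p = 0.0513), and Epha7 without Vehicle-sham 4 (-0.68, 0.0542). With the neuron marker sum as a covariate the values were -0.60 for Epha6, -0.55 for Epha5, -0.65 for Epha7 and -0.57 for Epha3, and the edgeR adjusted p was 0.221 for each.

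The remaining EphA members did not pass. Epha4, the most abundant of the family per kb, ran from 86.7 to 238 CPM with a median of 147 CPM in CCI libraries, against 155, 200.4, 189, 305 and 251 CPM in Vehicle-sham, with a log2 fold change of -0.51 ± 0.18 (SE; in the edgeR test, adjusted p = 0.0804). The groups overlapped, with 11 of 20 CCI libraries below every sham library, and the value was -0.18 with the neuron marker sum as a covariate. Epha8 ran from 28.2 to 159 CPM with a median of 75.7 CPM in CCI libraries and read 177, 23.6, 126, 165 and 137 CPM in Vehicle-sham, with Vehicle-sham 2 the lowest of all. Epha2, known mainly from epithelium and endothelium, was at or under 1.63 CPM in every library, with a log2 fold change of 0.74 ± 0.30 (SE; in the edgeR test, adjusted p = 0.13). Summed per kb, the 9 EphA genes averaged 84.1 ± 19.9 CPM per kb in CCI libraries and 128.9 ± 19.3 CPM per kb in Vehicle-sham (SD, n = 20 and 5). By group the means were 78.6 in TNF-CCI, 75.5 in TCF-CCI, 93.3 in TD-CCI, 89.2 in Vehicle-CCI and 128.9 CPM per kb in Vehicle-sham. Vehicle-sham 2 was the lowest of the sham libraries in this sum, at 107.3 CPM per kb, and 3 CCI libraries exceeded it: TD-CCI 2 at 119.0, Vehicle-CCI 3 at 118.1 and Vehicle-CCI 4 at 126.5 CPM per kb.

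Sequences just before the starts of 3 EphA genes that fell together are shown to compare their base composition. They are promoters of 300 bases (250 before to 50 after the gene start) from RefSeq on the build GRCr8, which matched 55 of the 70 genes by symbol. Capitals mark the GC box GGGCGG on either strand, the core site of the Sp1 family.
Epha5: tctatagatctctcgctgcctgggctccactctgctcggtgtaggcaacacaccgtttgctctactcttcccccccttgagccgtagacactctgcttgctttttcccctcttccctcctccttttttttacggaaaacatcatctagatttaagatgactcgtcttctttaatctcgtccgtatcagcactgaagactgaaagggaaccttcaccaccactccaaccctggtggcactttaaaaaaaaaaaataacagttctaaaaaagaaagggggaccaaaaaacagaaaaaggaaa
Epha6: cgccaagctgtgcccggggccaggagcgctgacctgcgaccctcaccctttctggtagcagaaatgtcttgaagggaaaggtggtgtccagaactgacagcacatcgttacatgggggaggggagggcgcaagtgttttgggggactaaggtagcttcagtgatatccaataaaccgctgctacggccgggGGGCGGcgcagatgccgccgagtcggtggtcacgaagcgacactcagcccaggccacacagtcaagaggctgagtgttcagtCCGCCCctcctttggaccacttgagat
Epha7: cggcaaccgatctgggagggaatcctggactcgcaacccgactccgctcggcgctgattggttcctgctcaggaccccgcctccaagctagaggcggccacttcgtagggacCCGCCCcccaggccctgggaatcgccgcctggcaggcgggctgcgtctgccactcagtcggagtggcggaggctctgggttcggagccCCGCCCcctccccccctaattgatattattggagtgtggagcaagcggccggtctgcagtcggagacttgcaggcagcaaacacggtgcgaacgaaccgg
The Epha5 window (chr14:24007872-24008171, plus strand) is 44.7% G and C and holds no GC box. The Epha6 window (chr11:53226534-53226833, plus strand) is 60.0% G and C and holds 2. The Epha7 window (chr5:47771643-47771942, plus strand) is 66.7% G and C and also holds 2. A GC box was in 34.9% of all 27457 promoters of that length, in 32 of the 55 matched genes of the rule and in 3 of the 7 that fell. Searched on both strands, the TATA box TATAAA (14.3% of all promoters), the cyclic AMP site TGACGTCA (1.91%), the AP-1 site TGANTCA (7.33%) and the E-box CACGTG (6.65%) were found in none of the 7 windows. The 7 windows ran from 36.3% to 68.3% G and C, and no motif searched was in all of them; no match says only that these letters are not in the window.

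EphB receptors, which bind the transmembrane ephrin-B ligands, had no call among 5. Ephb4, the receptor of ephrin-B2 on venous endothelium, lay just outside the threshold and ran from 3.59 to 7.34 CPM with a median of 5.01 CPM in CCI libraries, against 3.11, 3.41, 4.96, 3.13 and 3.83 CPM in Vehicle-sham. Of the CCI libraries 10 of 20 lay above every sham library, and the log2 fold change was 0.47 ± 0.15 (edgeR adjusted p = 0.053). Ephb6, a kinase-inactive member with the highest EphB level, was at 0.09 ± 0.17 on the log2 scale. None of the 8 ephrins passed: log2 fold changes ran from -0.25 to 0.37 among 5 ephrin-A genes and from -0.08 to 0.15 among 3 ephrin-B genes. The most abundant of them were Efna3, the ephrin-A that astrocytes present to neuronal EphA4 in mouse hippocampus, at -0.25 ± 0.16, and Efnb3 at -0.08 ± 0.17. Efna5, whose group means ranged most widely among ephrin-A genes, was at 0.37 ± 0.30. The summed ephrin-A level was 18.2 ± 2.45 CPM per kb in CCI libraries and 19.5 ± 1.83 CPM per kb in Vehicle-sham.

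**Figure D3:**
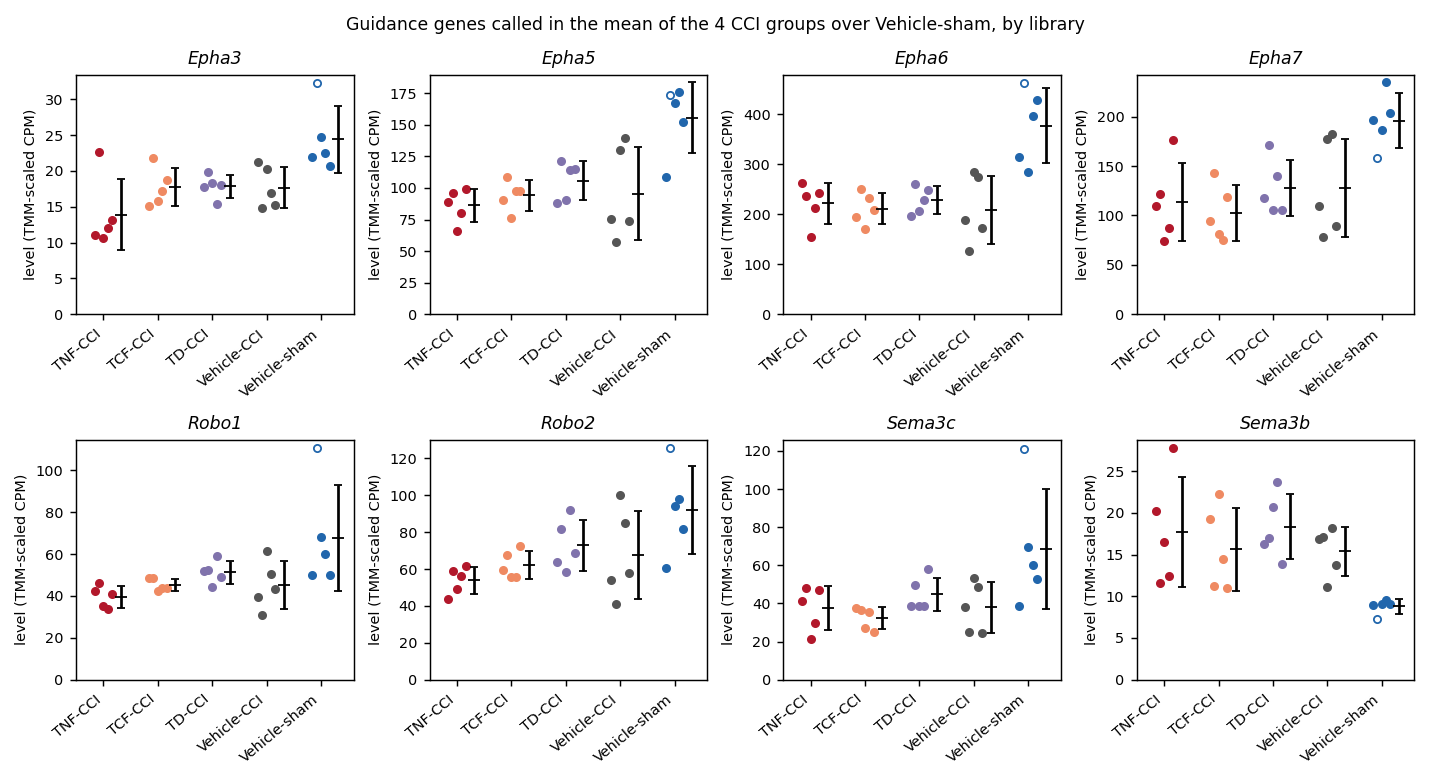
TMM-scaled CPM of the 8 called genes in every library (points), by group, with the mean ± SD of each group (n = 5) to its right. The open circle is Vehicle-sham 2, which is the highest sham library for Epha3, Epha6, Robo1, Robo2 and Sema3c and the lowest for Epha7 and Sema3b.

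Semaphorins of class 3 are secreted and signal through neuropilins and plexin-A receptors, except Sema3e, which binds plexin-D1 directly. In this class Sema3b rose and Sema3c fell. Sema3b (chr8:108271663-108280326), also known as a candidate tumour suppressor, had 20.2, 11.6, 16.5, 12.4 and 27.8 CPM in TNF-CCI, 19.3, 11.2, 22.2, 14.5 and 10.99 CPM in TCF-CCI, 16.3, 17, 20.7, 23.8 and 13.9 CPM in TD-CCI, 16.9, 17.1, 11.1, 18.2 and 13.7 CPM in Vehicle-CCI, and 8.97, 7.28, 9.13, 9.52 and 9.05 CPM in Vehicle-sham. All 20 CCI libraries lay above all 5 Vehicle-sham libraries, as they did for 0.0427% of all genes tested. The log2 fold change was 0.93 ± 0.19 (edgeR adjusted p = 0.0222), and 0.89 without Vehicle-sham 2 (adjusted p = 0.06). CCI libraries averaged 16.8 ± 4.59 CPM, while sham libraries were close together at 8.79 ± 0.868 CPM (SD, n = 20 and 5).

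Sema3c (chr4:17583212-17747234), known for guiding neural crest cells and cortical axons, ran from 21.4 to 57.9 CPM with a median of 38.3 CPM in CCI libraries, against 38.4, 121, 69.9, 60.2 and 52.8 CPM in Vehicle-sham. In 10 of 20 CCI libraries it was below every sham library, and Vehicle-sham 2 was far above the other sham libraries. Sema3c had a log2 fold change of -0.85 ± 0.20 (SE; in the edgeR test, adjusted p = 0.0246), and -0.52 without Vehicle-sham 2 (adjusted p = 0.195). Sema3e was at -0.43 ± 0.15 (edgeR adjusted p = 0.0699) and Sema3f, a Nrp2 ligand, at 0.69 ± 0.32 (adjusted p = 0.188). Sema3a, the Nrp1 ligand that collapses growth cones, was low, at 0.358 CPM per kb, with a log2 fold change of 0.07 ± 0.26. Sema3f in TD-CCI 4 was 20.3 CPM, against 3.05 to 7.77 CPM in the other CCI libraries. That library also had the highest sum of 7 thalamus markers, at 360 CPM against 112.4 to 159.1 CPM in Vehicle-sham, and their part in the Sema3f value was not tested.

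Membrane-bound semaphorins and the semaphorin receptors had no call. The 6 class 4 semaphorins, ligands mainly of plexin-B receptors, were all above 0 on the log2 scale, from 0.22 to 0.35 with a median of 0.31. Sema4a, the most abundant of them, was at 0.33 ± 0.18 and Sema4g at 0.31 ± 0.17. Without Vehicle-sham 2 they were still all above 0, with a median of 0.13. Their summed level was 41.0 ± 4.52 CPM per kb in CCI libraries and 33.4 ± 12.1 CPM per kb in Vehicle-sham, where Vehicle-sham 2 had 12.3 and the others 34.7 to 41.0 CPM per kb. Sema5a was at -0.46 ± 0.26, the 4 class 6 members ran from -0.04 for Sema6b to 0.21, with Sema6c at 0.20 ± 0.22, and Sema7a was at -0.14 ± 0.22. Of 9 plexins 8 were above 0, but only 2 of 9 without Vehicle-sham 2, so their direction rests on that library. Plxnb2, a receptor of class 4 semaphorins that is also made by microglia and macrophages, ran from 42.8 to 125 CPM with a median of 82.9 CPM in CCI libraries, against 56.4, 18.95, 44.6, 54.7 and 71.2 CPM in Vehicle-sham. Of the CCI libraries 13 of 20 lay above every sham library. Its log2 fold change was 0.71 ± 0.23 (edgeR adjusted p = 0.0582), and 0.53 without Vehicle-sham 2 (adjusted p = 0.194). Microglia marker sums were higher in 17 of the 20 CCI libraries than in any sham library, and their part in the Plxnb2 values was not tested. Among the neuropilins, the co-receptors that bind class 3 semaphorins, Nrp1 was at -0.22 ± 0.10 (edgeR adjusted p = 0.178) and Nrp2 at 0.05 ± 0.11.

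Slit proteins are secreted repellents that bind Robo receptors. The Slits did not pass, at 0.13 ± 0.24 for Slit1, -0.03 ± 0.20 for Slit2 and 0.02 ± 0.19 for Slit3, while 2 of 3 Robo receptors fell. Robo1 (chr11:10580863-11621672) ran from 31.1 to 61.3 CPM with a median of 44.03 CPM in CCI libraries, against 49.99, 111, 68.1, 59.9 and 49.9 CPM in Vehicle-sham. It was below every sham library in 15 of 20 CCI libraries, with Vehicle-sham 2 far above the rest. This gave a log2 fold change of -0.58 ± 0.14 (SE; in the edgeR test, adjusted p = 0.0247), and -0.31 without Vehicle-sham 2 (adjusted p = 0.216). Robo2 (chr11:12528949-14096726) ran from 41.3 to 99.95 CPM with a median of 59.3 CPM in CCI libraries, against 60.4, 126, 94.1, 98.1 and 81.8 CPM in Vehicle-sham. It was below every sham library in 11 of 20 CCI libraries. Its log2 fold change was -0.53 ± 0.16 (edgeR adjusted p = 0.0446), and -0.36 without Vehicle-sham 2 (adjusted p = 0.29). The call is close to the threshold: Robo2 passed in 10 of the 25 fits that each left out 1 library. Robo3, which in mammals acts at the midline and binds Slits weakly if at all, ran from 14.6 to 106 CPM with a median of 53.8 CPM in CCI libraries, against 95.5, 14.2, 125, 139.9 and 136 CPM in Vehicle-sham. Its log2 fold change was -0.95 ± 0.41 (edgeR adjusted p = 0.151), and Vehicle-sham 2 lay far below the other sham libraries. Summed per kb, Robo receptors averaged 16.1 ± 4.90 CPM per kb in CCI libraries and 26.5 ± 4.39 CPM per kb in Vehicle-sham. Robo3, which was not called, held 43.7% of this sum over all 25 libraries. It averaged 6.71 CPM per kb in CCI libraries and 12.8 CPM per kb in Vehicle-sham. The sums overlapped, with Vehicle-CCI 3 at 26.6 and Vehicle-sham 1 at 21.4 CPM per kb.
The promoter of Robo2 (chr11:26526363-26526662, minus strand, GRCr8) is shown as a further window of a gene that fell. It is 68.3% G and C and holds 1 GC box, in capitals. Its gene start is that of RefSeq and was not matched to the first exon counted on mRatBN7.2, so the window may lie inside the counted gene. The windows of Epha3, Robo1 and Sema3c, which also fell, are not shown and hold no GC box. They are 59.3%, 45.7% and 36.3% G and C.
Robo2: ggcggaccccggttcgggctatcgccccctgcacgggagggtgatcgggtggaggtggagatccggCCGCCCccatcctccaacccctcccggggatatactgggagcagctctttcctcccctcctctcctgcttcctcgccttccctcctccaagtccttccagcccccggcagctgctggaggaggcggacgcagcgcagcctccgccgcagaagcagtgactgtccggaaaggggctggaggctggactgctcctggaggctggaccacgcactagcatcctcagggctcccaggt

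**Figure D4:**
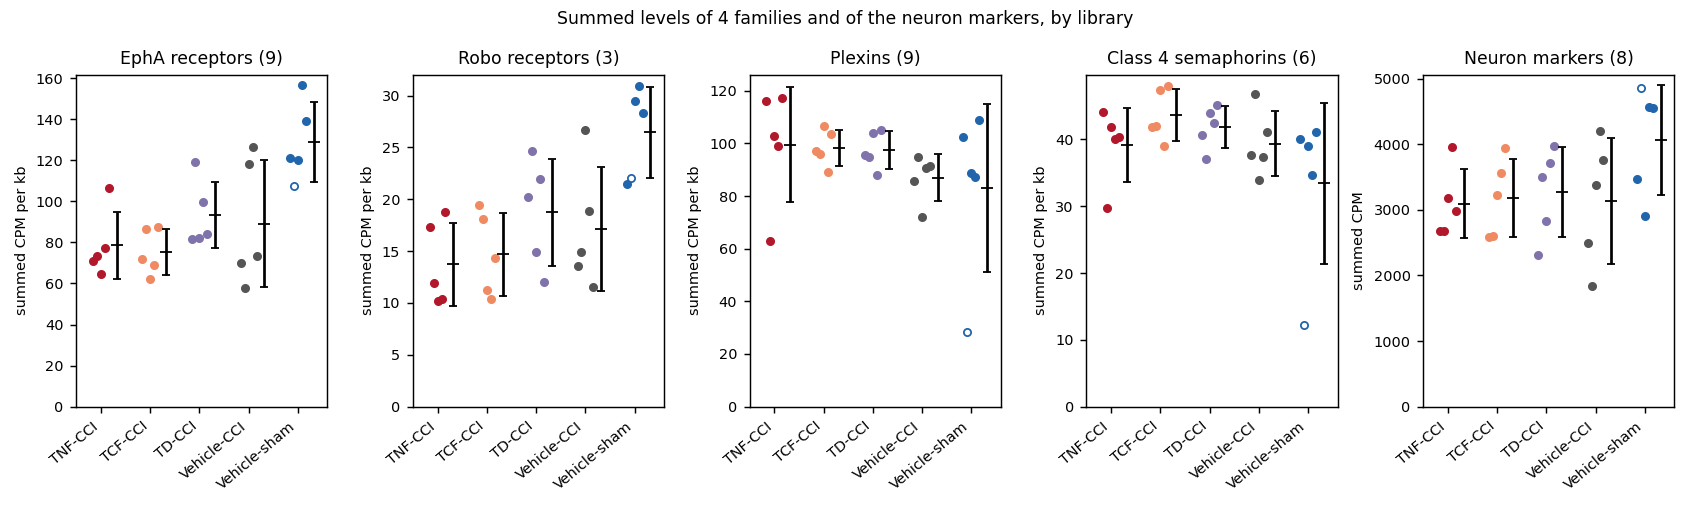
Summed levels per library of EphA receptors, Robo receptors, plexins and class 4 semaphorins (CPM per kb of exon) and of 8 neuron markers (CPM), by group, with the mean ± SD of each group (n = 5) to its right. The open circle is Vehicle-sham 2, the lowest library in the plexin and class 4 panels at 28.4 and 12.3 CPM per kb and the highest in the neuron marker panel at 4855 CPM.

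Netrins attract axons through Dcc and repel them through Unc5 receptors. None of the 4 netrins and none of the 5 receptors passed between the CCI groups' mean and Vehicle-sham. The netrins ran from -0.08 for Ntn3, the most abundant, to 0.17 for Ntn5 on the log2 scale and the receptors from -0.26 for Unc5d to 0.26 for Unc5b. Unc5a, the most abundant guidance gene per kb, had a log2 fold change within 1 SE of 0, and Dcc was at -0.09 ± 0.16. Their summed levels were 7.12 ± 1.37 CPM per kb in CCI libraries and 6.98 ± 1.24 CPM per kb in Vehicle-sham for netrins, and 62.4 ± 10.2 CPM per kb in CCI libraries and 63.4 ± 19.4 CPM per kb in Vehicle-sham for the receptors. Differences of this size lay within the spread between libraries.

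Each CCI group was then set against the same 5 Vehicle-sham libraries, so the 4 comparisons share their sham values. TNF-CCI over Vehicle-sham called 6 of 69 genes, where 2.57% of all genes tested were called. Lower were Epha3 (-0.81 ± 0.18, edgeR adjusted p = 0.0236), Epha5 (-0.85 ± 0.20, 0.0285), Robo1 (-0.77 ± 0.19, 0.0312), Epha6 (-0.77 ± 0.20, 0.0388) and Robo2 (-0.77 ± 0.20, 0.0425), where 0.864% of all genes were lower. Higher was Sema3b (1.01 ± 0.23, 0.0239), where 1.71% of all genes were higher. TNF-CCI libraries also had the largest mean total, 38.32 M counts, against 30.94 to 32.58 M in the other groups. Their mean mitochondrial rRNA share was the lowest, 4.866% against 6.592 to 11.6%. The part of either in these calls was not tested. TCF-CCI, TD-CCI and Vehicle-CCI over Vehicle-sham called none of the 69, where 0.0142, 0 and 0% of all genes were called. At an unadjusted p under 0.05, edgeR gave 21, 10 and 8 of the 69 in those comparisons and DESeq2 called 6, 2 and 3 at its adjusted p. At that unadjusted threshold, all genes tested stood at 18% in TCF-CCI, 16.5% in TD-CCI and 12.7% in Vehicle-CCI, and at 20% in TNF-CCI. Set side by side, Epha6 was at -0.77 in TNF-CCI, -0.84 in TCF-CCI, -0.72 in TD-CCI and -0.85 in Vehicle-CCI. Sema3b was at 1.01 in TNF-CCI, 0.83 in TCF-CCI, 1.06 in TD-CCI and 0.81 in Vehicle-CCI. Sema3c was at -0.87 in TNF-CCI, -1.07 in TCF-CCI, -0.61 in TD-CCI and -0.85 in Vehicle-CCI. A test of any difference among the 5 groups called none of the 69 and none of all genes (0%). At an unadjusted p under 0.05, edgeR gave 11 of the 69 and 11.7% of all genes in that test. DESeq2 called 5 of the 69 in it. The share of all genes called by DESeq2 is not given beside its counts here, so they do not show that these genes stand out.

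Groups without overlap, 5 libraries against 5, were few. In TNF-CCI every library was below every Vehicle-sham library for Epha5, Epha6 and Robo1, which 0.926% of all genes did, and above for Sema3b, which 2.58% did. In TCF-CCI the genes below were Epha6, Epha7, Sema3c and Robo1 (1.82% of all genes) and the gene above was Sema3b (1.73%). In TD-CCI Epha3 and Epha6 lay below (0.864%) and Sema3b above (2.36%). In Vehicle-CCI Epha6 lay below (0.318%) and Sema3b above (0.465%). The TNF-CCI calls rest on single libraries and on the other groups in the fit: with only the groups compared edgeR called 0 of the 69. With all groups it called 0 of the 69 without TNF-CCI 1, 0 without TNF-CCI 5, 1 without TNF-CCI 3, 3 without TNF-CCI 4, 1 without Vehicle-sham 2, 3 without Vehicle-sham 3 and 0 without Vehicle-sham 4. In Vehicle-CCI over Vehicle-sham it called 2, Epha6 and Epha5, without Vehicle-CCI 4. The share of all genes called in these alternative fits is not given here.

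**Figure D5:**
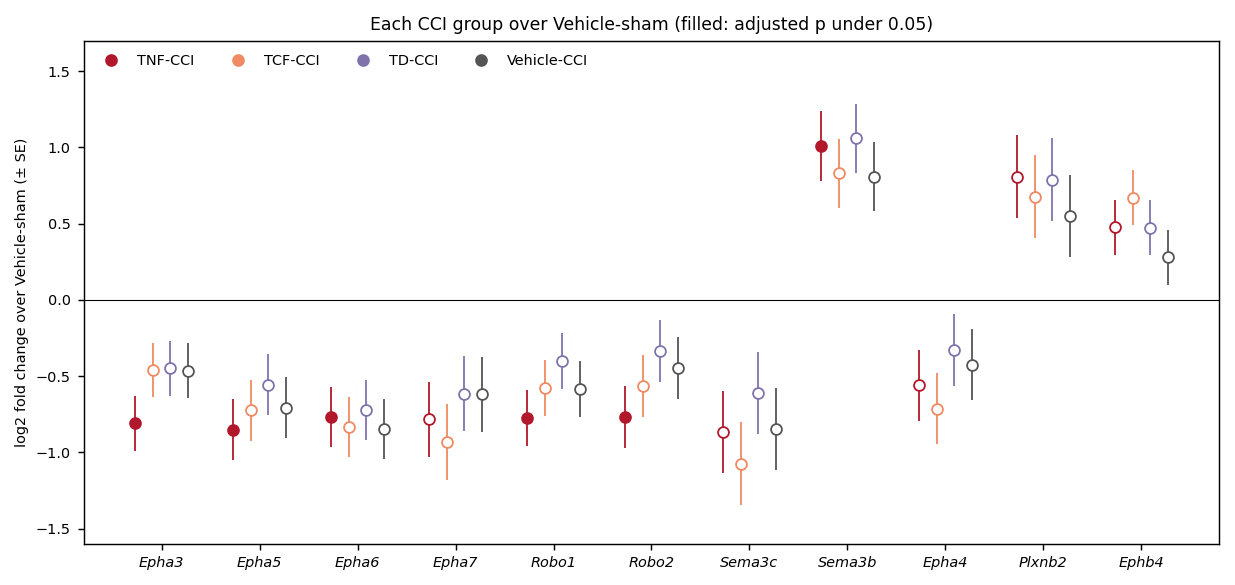
The log2 fold change (± SE) over Vehicle-sham in TNF-CCI, TCF-CCI, TD-CCI and Vehicle-CCI for the 8 called genes and for Epha4, Plxnb2 and Ephb4, which lay outside the threshold. Filled points passed the edgeR test in that comparison, all 6 of them in TNF-CCI; the 4 groups share the 5 sham libraries.

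The authors' deposited tables compare each CCI group with the control by DESeq2 and, at an adjusted p under 0.05, list 6 genes of the rule for TNF-CCI (Epha3, Epha5, Epha6, Epha7, Robo2 and Sema3b), where 3.53% of genes with an adjusted p passed. For TCF-CCI the authors' deposited table lists 7 (Epha4, Epha5, Epha6, Epha7, Sema3b, Sema3c and Sema3f; 2.24% of genes), for TD-CCI 3 (Epha6, Epha7 and Sema3b; 2.34%) and for Vehicle-CCI 1 (Sema3b; 0.326%). Sema3b is in all 4 of the authors' deposited lists, with adjusted p of 0.00433, 0.0175, 9.94e-07 and 0.00721 for TNF-CCI, TCF-CCI, TD-CCI and Vehicle-CCI. Fold changes in the authors' deposited tables differed from the edgeR values here by at most 0.0294 on the log2 scale among the genes of the rule. The authors' deposited tables name their reference only as control.

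The supplements were next set against Vehicle-CCI, which asks whether they changed these genes after the same injury. No gene of the rule passed in TNF-CCI, TCF-CCI or TD-CCI over Vehicle-CCI, and no gene of the whole table did (0% called in each; edgeR adjusted p of 1 for each gene of the rule; DESeq2 also called 0 of the 69 in each). At an unadjusted p under 0.05 there were 0, 3 and 1 of the 69, and 3.46, 1.44 and 1.75% of all genes. In TNF-CCI the smallest p was that of Epha3, which had 11, 22.7, 10.6, 12.03 and 13.2 CPM in TNF-CCI, against 21.2, 14.8, 20.2, 16.98 and 15.2 CPM in Vehicle-CCI (-0.35 ± 0.18 on the log2 scale, edgeR unadjusted p = 0.066). TNF-CCI 2 lay above all Vehicle-CCI libraries and the other 4 below them. The next smallest p were those of Plxna4 (0.47 ± 0.28, edgeR unadjusted p = 0.104), Robo2 (-0.33 ± 0.20, 0.121) and Epha2 (0.53 ± 0.35, 0.141). Ntn5 was the 1 gene without overlap, with 1.88, 2.30, 2.79, 3.07 and 2.80 CPM in TNF-CCI, against 3.47, 3.31, 3.13, 3.14 and 3.37 CPM in Vehicle-CCI (-0.35 ± 0.27, edgeR unadjusted p = 0.209). Of all genes tested 0.323% were lower without overlap in that comparison.

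In TCF-CCI over Vehicle-CCI the smallest p were those of Ephb4 (0.39 ± 0.18, edgeR unadjusted p = 0.0382), Sema3a (0.71 ± 0.33, 0.0385) and Efnb2, the ephrin ligand of Ephb4 (0.48 ± 0.23, 0.048), followed by Sema3g (0.50 ± 0.30, 0.0999). Efnb2 had 16.02, 20.1, 23.9, 21.05 and 23.8 CPM in TCF-CCI, against 14.3, 11.5, 13.1, 13.8 and 22.2 CPM in Vehicle-CCI, and Ephb4 had 6.06, 4.70, 6.30, 4.94 and 7.34 CPM in TCF-CCI, against 4.77, 5.09, 4.05, 4.04 and 4.42 CPM in Vehicle-CCI. The groups overlapped for both genes. In TD-CCI over Vehicle-CCI the smallest p was that of Sema3f (0.85 ± 0.39, edgeR unadjusted p = 0.0391), with 6.50, 3.58, 4.02, 20.3 and 3.71 CPM in TD-CCI, against 3.18, 4.66, 5.06, 3.60 and 4.71 CPM in Vehicle-CCI. The highest of these is TD-CCI 4, the library of high thalamus markers. After Sema3f came Sema3d (0.49 ± 0.25, edgeR unadjusted p = 0.0661), the netrin Ntn1 (0.60 ± 0.38, 0.126) and Epha10, a kinase-inactive receptor (0.37 ± 0.24, 0.13). For the 8 genes called in the mean of the 4 CCI groups, differences from Vehicle-CCI ran from -0.35 for Epha3 to 0.20 for Sema3b in TNF-CCI. They ran from -0.31 for Epha7 to 0.02 for Sema3b in TCF-CCI. In TD-CCI they ran from 0.01 for Epha3 and Epha7 to 0.25 for Sema3b. With 5 libraries a group, a p that misses the threshold does not show that the supplements left these genes alone.

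The genes that fell also shared a long gene body, which the rule did not use. From first to last exon the 7 spanned 153.4 to 1568 kb with a median of 366.7 kb, against a median of 40.31 kb for the 61 not called, which ran from 3.097 to 1104 kb, and 8.664 kb for Sema3b. Of 31 tested genes of the rule that span at least 100 kb, edgeR called 7 lower. Of 38 shorter ones it called none lower and 1 higher. This split is of calls and not of the size of the fall. Among the shorter genes, Robo3 (18.133 kb) was at -0.95 and Epha8 (27.392 kb) at -0.62 on the log2 scale, neither of them called. None of the 7 calls held without Vehicle-sham 2, which was the highest sham library for 5 of the 7. Without it Robo1 was at -0.31, Robo2 at -0.36 and Epha7 at -0.78, and the short gene Robo3 was at -1.21. The other values of this paragraph include that library, so the split by length was not examined without it. Over all genes tested the lower calls were 5.67% of 2432 genes of at least 100 kb and 3.42% of 18632 shorter genes. Across the 69 genes the Spearman rank correlation of gene span and log2 fold change was -0.40, given as a description, since the values share the same libraries. On mRatBN7.2, Robo1 and Robo2 lie 907.3 kb apart on chromosome 11, which also carries Epha3 and Epha6. Sema3b and Sema3f lie 77.3 kb apart on chromosome 8.

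Other genes of the guidance pathway were taken from fixed lists. Of 41 further guidance cues and cue-like adhesion proteins tested, 1 rose and 2 fell when the 4 CCI groups' mean was set against Vehicle-sham, with a median log2 fold change of 0.03. Draxin, a secreted repellent that binds netrin and Dcc, averaged 15.1 ± 8.28 CPM in CCI libraries and 5.08 ± 1.57 CPM in Vehicle-sham (SD, n = 20 and 5; 1.51 ± 0.39 on the log2 scale, edgeR adjusted p = 0.0313). Lrrc4c, the ligand of netrin-G1, fell by 0.73 ± 0.19 (adjusted p = 0.0301) and Flrt3, a ligand of Unc5 receptors, fell by 0.83 ± 0.23 (0.0359). Lrrc4c averaged 58.8 ± 9.86 CPM in CCI libraries and 97.2 ± 61.8 CPM in Vehicle-sham, and Flrt3 averaged 48.0 ± 11.5 CPM in CCI libraries and 85.2 ± 62.0 CPM in Vehicle-sham, so the sham libraries were widely spread for both. Of 60 intracellular effectors 1 rose and 1 fell, with a median of 0.04. Of 19 myelin and scar inhibitors of growth 1 rose and none fell, with a median of 0.14. It was Tnc, the scar matrix protein tenascin-C, with 35.9 ± 10.5 CPM in CCI libraries and 19.4 ± 5.35 CPM in Vehicle-sham (0.88 ± 0.21, edgeR adjusted p = 0.0246). Ptprf, a receptor of growth-inhibiting proteoglycans, was at 0.53 ± 0.19 (edgeR adjusted p = 0.0868) and Rtn4, the myelin protein Nogo, at -0.43 ± 0.16 (0.107). Of 13 tested genes known from regenerating neurons, Socs3, which dampens cytokine signalling and axon regrowth, rose by 1.93 ± 0.50 (edgeR adjusted p = 0.0311), and the growth cone protein Stmn2 fell by 0.70 ± 0.19 (0.0366), with a median of 0.11. Basp1, another growth cone protein, was at -0.54 ± 0.17 (edgeR adjusted p = 0.061). These counts stand beside 5.92% of all genes called in that comparison, and beside the 14 genes in all that were called without Vehicle-sham 2.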

How the data were processed

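RNA from rat hippocampus was made into polyA-selected libraries, per the labels' protocols. The authors deposited whole-number read counts per gene for all 25 libraries, with exon lengths and positions. Tools named in the submitters' processing notes, without versions, are STAR, Salmon, featureCounts and DESeq2, with the build mRatBN7.2. The sources used here give no strand setting, which leaves overlapping and antisense genes uncertain. The authors' deposited DESeq2 tables give, per the file headers, log2 fold changes, p-values, and a standard error and Wald score per gene.

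Here, edgeR 4.0.16 in R 4.3.3 tested 21064 of 34322 genes (7 with empty cells left out), with TMM factors and filterByExpr, by a robust quasi-likelihood fit to all 25 libraries at once. Adjusted p-values are Benjamini-Hochberg over all genes tested, at 0.05. CPM were TMM-scaled here and divided by exon length for levels per kb. Within groups, the chi-square between 2 libraries divided by its degrees of freedom was 24.9 to 750, so no library was a copy. The fit was tested on simulated data. The genes and lists were chosen with earlier results of these data known. Named were genes called or without overlap in any comparison, the 4 of smallest p in each, the most abundant and most variable of each family and their partners, and the 3 of smallest p in each pathway list; other genes are named with their values as chosen after these were seen. Alternatives were DESeq2 1.42.0 and its size factors, limma 3.58.1 voom with sample weights, 2 other filters, a replicate block, fits of only the groups compared, the mitochondrial rRNA share as a covariate, and leaving out libraries. A neuron marker covariate and a fit without 3 CCI libraries were added after seeing the data. Genes of the effector list are not reported here by name.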

Additional observations from a re-analysis of the deposited data

Results flagged for a closer look

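Of 45 sets of 5 libraries examined (9 genes called or without overlap, in each of 5 groups), 3 held a library far from the others by Dixon's test, and chance gives about 1 in 20. Epha3 in TNF-CCI 2 was 22.698 CPM, against 10.6 to 13.2 CPM in the other TNF-CCI libraries. Sema3b in Vehicle-sham 2 was 7.2846 CPM, against 8.97 to 9.52 CPM in the other sham libraries. Ntn5 in Vehicle-sham 2 was 0.85367 CPM, against 2.98 to 3.29 CPM in the other sham libraries. Vehicle-sham 2 is the library with 25.63% of its counts on mitochondrial ribosomal RNA, and the part of that share in these values was not tested.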

How the results depend on the processing

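For the mean of the 4 CCI groups over Vehicle-sham (8 genes called), the count was 2 with mitochondrial rRNA as a covariate (Epha6 and Sema5a), 0 without Vehicle-sham 2 and 3 together, 0 with the neuron marker sum as a covariate, and 0 to 12 when 1 library was left out (0 without Vehicle-sham 2). For TNF-CCI over Vehicle-sham (6 called) it was 10 with DESeq2, 0 with only the groups compared, 0 with either covariate, 0 without both sham libraries, and 0 to 9 with 1 library left out. For TCF-CCI over Vehicle-sham (0 called) it was 6 with DESeq2 and 7 with voom. For TD-CCI over Vehicle-sham (0 called) it was 2 with DESeq2 and 1 with only the groups compared. For Vehicle-CCI over Vehicle-sham (0 called) it was 3 with DESeq2, 6 without Vehicle-CCI 3, TD-CCI 4 and Vehicle-CCI 4, whose choroid plexus, thalamus and oligodendrocyte markers were high, and 0 to 2 with 1 library left out. For any difference among the 5 groups (0 called) it was 5 with DESeq2 and 2 without those 3 libraries. The causes were not tested. Counts in this section are of the 69 genes alone. The share of all genes called in the same fits is not given, so they do not show whether these genes moved apart from the whole table. The 3 comparisons with Vehicle-CCI gave 0 under every alternative run. The log2 fold changes of all 8 called genes kept their direction under every alternative run, and among the 22 named genes whose log2 fold change exceeded its SE the 1 sign change was Epha10, at -0.001286 with the mitochondrial rRNA covariate. The replicate block gave 11 calls for the mean of the 4 CCI groups, the 8 among them, and 7 for TNF-CCI, and it moved no other count. The labels give no source that same-numbered libraries share. Over 50 same-numbered pairs the median correlation of deviations was 0.123 (range -0.32 to 0.441; 27 pairs over 0.1), against a median of -0.0213 for other pairs, and 13 of 25 libraries correlated best with their own number. That is a hint of pairing from the data, not from the design, so the numbers were not used to pair libraries. All sham comparisons rest on 5 sham libraries, of which 2 have high mitochondrial rRNA shares.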

Other observations

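Several genes of the rule lie within 3000 kb of another gene of the rule on mRatBN7.2. Genes outside the rule that may lie between them were not looked at. Their log2 fold changes are those of the 4 CCI groups' mean over Vehicle-sham. On chromosome 2, Efna1 was at 0.26 and Efna3, 38.89 kb away, at -0.25 on the log2 scale, with Efna4 10.62 kb further at 0.07, none of them called by edgeR. On chromosome 4, Sema3c was at -0.85, Sema3e at -0.43, Sema3a at 0.07 and Sema3d at 0.01, within gaps of 561.9 to 2550 kb, and Sema3c was the 1 called. On chromosome 5, Ephb2 was at -0.23 and Epha8, 89.08 kb away, at -0.62, neither of them called.

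Within the CCI libraries, Vehicle-CCI 2 was the lowest of the 20 for 4 of the 7 genes that fell (Epha5, Epha6, Robo1 and Robo2) and TNF-CCI 3 for the other 3 (Epha3, Epha7 and Sema3c). Vehicle-CCI 2 also had the lowest neuron marker sum of all 25 libraries, at 1844 CPM, whereas TNF-CCI 3 had 3186 CPM, close to the CCI mean of 3170 CPM. The highest CCI values were those of Vehicle-CCI 3 for Epha6, Robo1 and Robo2 and of Vehicle-CCI 4 for Epha5 and Epha7. Vehicle-CCI 3 also had the highest choroid plexus marker sum of all 25 libraries, at 3899 CPM. Vehicle-CCI 4 had the highest mature oligodendrocyte marker sum, at 26760 CPM. All of these are values of single libraries, and the part of neuron content or other tissue content in them was not tested.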
